A study of Mus musculus with 9 samples.

Results

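The AP-1 and immediate early factors described here were 10 genes, chosen by symbol out of the 50600 genes of the deposited count and TPM tables. They were the Fos family (Fos, Fosb, Fosl1 and Fosl2), the Jun family (Jun, Junb and Jund), the related leucine zipper factors Atf3 and Maff, and the zinc finger factor Egr1. In tumoroids, Fos, Fosl2, Jun, Junb, Egr1 and Maff rose against both groups of normal organoids, with fitted log2 fold changes from 1.02 to 2.03. Between the organoid groups Fosl1 alone was called, higher by 1.11 (log2, SE 0.28) in the libraries titled T-cM than in those titled WT-cM. That call rested on 14 to 43 reads per library and on a model with the mouse as a block. It held in 5 of 12 alternative analyses, and was lost in some that kept the block.

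AP-1 is a dimer of basic leucine zipper proteins, in which a Jun protein pairs with itself or with a Fos protein and binds a short DNA element known as the TRE. Several of these genes are immediate early genes: growth factors, serum or stress switch them on through MAP kinases and factors such as SRF without new protein synthesis, and their RNA is short-lived. In the intestine, AP-1 lies downstream of EGF receptor and JNK signalling, and c-Jun is known to work with the Wnt effector TCF4 in tumours that lack Apc.

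RNA was sequenced from 9 libraries in 3 groups of 3 replicates. Wildtype organoids came from the small intestine of mice aged 2 to 5 months, given in the labels as C57BL/6, and were kept for 24 hr in Matrigel, in equal parts of conditioned medium and of fresh medium with EGF, Noggin and R-spondin1 (ENR) at double strength. The conditioned medium came from tumoroids (T-cM) or from wildtype organoids (WT-cM), and vesicles had been removed from it. By the study's methods, WT-cM was ENR conditioned for 1 week. T-cM was conditioned for 1 to 2 weeks on tumoroids, whose own medium held no R-spondin1. Source, R-spondin1 and time of conditioning cannot be told apart between these media. Tumoroids came from intestinal tumours of Apc1638N/+ mice over 6 months old, given in the labels as of mixed strain, and were grown for 24 hr without conditioned medium in EGF and Noggin without R-spondin1 (EN). The study's methods describe all of its mice as of mixed background, which differs from the label of the organoids. Genotype, labelled strain, age, tissue of origin and medium therefore cannot be told apart between tumoroids and organoids. For the 6 organoid libraries the titles and the treatment field name opposite media, and the groups are named here by title, as T-cM-titled or WT-cM-titled organoids, so that any direction between them turns round if the treatment field is right. Each replicate number stood for a different mouse, and the organoids of 1 number were paired across both media.

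Libraries held 16541635 to 25170966 reads on genes. CPM below are counts per unit of TMM-scaled library size (edgeR's CPM), so that 3 reads were worth 0.103 to 0.204 CPM, and TPM are the deposited values per gene length. Counting limits cover counting error only. A gene counted as called at a Benjamini-Hochberg adjusted p under 0.05 in edgeR's quasi-likelihood test and an absolute log2 fold change above 1, over 16208 tested genes. The summed TPM of 6 epithelial markers was 7630 to 11600 in every library. Fibroblast markers summed to at most 1.5 TPM and endothelial markers to at most 3.06 TPM. The 6 immune markers summed to 1.11 to 2.89 TPM in organoids and 13.8 to 61.6 TPM in tumoroids, from Cd68 and Csf1r, with Cd3e at 0 in all libraries and Ptprc under 1 CPM. The 4 smooth muscle markers summed to at most 1.31 TPM in organoids and to 4.28 to 92.7 TPM in tumoroids. Acta2, at 46.0 CPM in tumoroid 3, was the one of the 4 that exceeded 1 TPM there. The part of these markers in the results below was not tested. Apc had 79.4, 105.5 and 124 CPM in tumoroids and 102.6 to 171 CPM in organoids, a level that does not check the genotype, since the mutant allele may still be transcribed.

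Promoter sequences from RefSeq (GRCm38.p6) were examined for 8 of the 10 genes, all but Fosl1 and Egr1. Of these, 4 that rose in tumoroids are shown, each as the 250 bases before a transcription start, 5′ to 3′ on the strand of the gene. Capitals mark the TATAAA box of Fos, the TGACATCA of Jun and the full cyclic AMP response element (CRE) TGACGTCA of Maff. Fos lay at chr12:85473640-85473889 (+), Jun at chr4:95052223-95052472 (-), Junb at chr8:84978749-84978998 (-) and Maff at chr15:79347270-79347519 (+). The Maff window was intronic to a longer transcript and ended at an internal first exon.
Fos: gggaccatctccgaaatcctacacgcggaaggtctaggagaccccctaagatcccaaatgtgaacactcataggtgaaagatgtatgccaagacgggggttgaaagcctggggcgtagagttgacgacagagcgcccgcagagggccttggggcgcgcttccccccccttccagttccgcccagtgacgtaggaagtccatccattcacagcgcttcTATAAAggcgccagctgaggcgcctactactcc
Jun: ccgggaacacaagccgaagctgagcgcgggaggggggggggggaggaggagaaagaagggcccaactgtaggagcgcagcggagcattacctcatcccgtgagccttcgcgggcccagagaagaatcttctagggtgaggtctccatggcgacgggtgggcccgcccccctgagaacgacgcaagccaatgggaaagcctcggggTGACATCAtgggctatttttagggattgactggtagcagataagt
Junb: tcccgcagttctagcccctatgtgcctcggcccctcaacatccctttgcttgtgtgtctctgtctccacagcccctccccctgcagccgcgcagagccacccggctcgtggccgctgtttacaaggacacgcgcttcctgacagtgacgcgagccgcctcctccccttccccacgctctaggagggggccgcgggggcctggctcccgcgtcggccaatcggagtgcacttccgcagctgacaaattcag
Maff: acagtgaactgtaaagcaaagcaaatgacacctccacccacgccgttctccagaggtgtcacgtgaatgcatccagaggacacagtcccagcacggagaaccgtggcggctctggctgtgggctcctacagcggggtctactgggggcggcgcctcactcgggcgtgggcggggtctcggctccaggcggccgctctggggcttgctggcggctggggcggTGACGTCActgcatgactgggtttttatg

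Both strands were searched for the TRE (TGACTCA), the CRE (TGACGTCA), the looser form TGACNTCA, which includes the CRE, the CArG box bound by SRF, the TEAD motif (GGAATG) and the TATA box of the letters shown for Fos. The looser form was added after the sequences had been read. Of 32851 promoter windows of the same length, 4.46% held the TRE, 1.55% the CRE, 7.49% the looser form, 1.47% a CArG box, 12.6% the TEAD motif and 12.4% the TATA box. Among the 10 windows of the 8 genes none held a TRE, a CArG box or the TEAD motif. Sequence further upstream, and the promoters of Fosl1 and Egr1, lay outside this count. The TATA box stood 33 to 28 bases before the start of Fos. The looser form stood 45 to 38 bases before the start of Jun, and at the same distance before another start of Maff. The CRE of Maff stood 29 to 22 bases before the start shown.

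Set against each other per gene length, Jund and Fosl2 were the leading members of their families, apart from T-cM-titled organoid 1, where Fos (50.0%) exceeded Fosl2 (43.9%). In the Jun family, Jund made up 61.9% ± 2.14 (SD, n = 3) of the summed TPM in WT-cM-titled organoids, 63.7% ± 4.48 in T-cM-titled organoids and 49.8% ± 5.11 in tumoroids. The share of Jun, the member with the strongest transactivation, was 8.0 to 9.10%, 7.48 to 10.8% and 12.0 to 23.2% in the same order. The shares of Jund and Jun in tumoroids thus did not overlap those in either organoid group. With 3 libraries against 3, an exact two-sided permutation test gave p = 0.1 for each, the smallest value it allows.

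In the Fos family, Fosl2 made up 61.6% ± 9.14 (SD, n = 3) of the TPM in WT-cM-titled organoids, 59.8% ± 14.3 in T-cM-titled organoids and 67.1% ± 12.3 in tumoroids. Fos followed with 34.3% ± 10.2, 33.5% ± 14.5 and 29.9% ± 11.3. These ranges overlapped in all groups. Fosl1 made up 2.67 to 5.79%, 5.43 to 8.18% and 2.13 to 4.11%, and Fosb at most 0.453%. The family as a whole summed to 43.5 ± 3.25 TPM in WT-cM-titled organoids, 53.0 ± 3.52 TPM in T-cM-titled organoids and 187 ± 75.2 TPM in tumoroids. The Jun family summed to 232 ± 41.0, 247 ± 46.3 and 685 ± 214 TPM. These sums are not TMM-scaled. On log2(TPM + 1), the median log2 fold change of all tested genes in tumoroids was 0.52 against WT-cM-titled and 0.51 against T-cM-titled organoids. With TMM factors it was 0.15 and 0.16. Mean Jund was 144 TPM in WT-cM-titled organoids and 335.5 TPM in tumoroids, but 99.4 and 159 CPM. The plot of family shares gives each library.

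**Figure D1:**
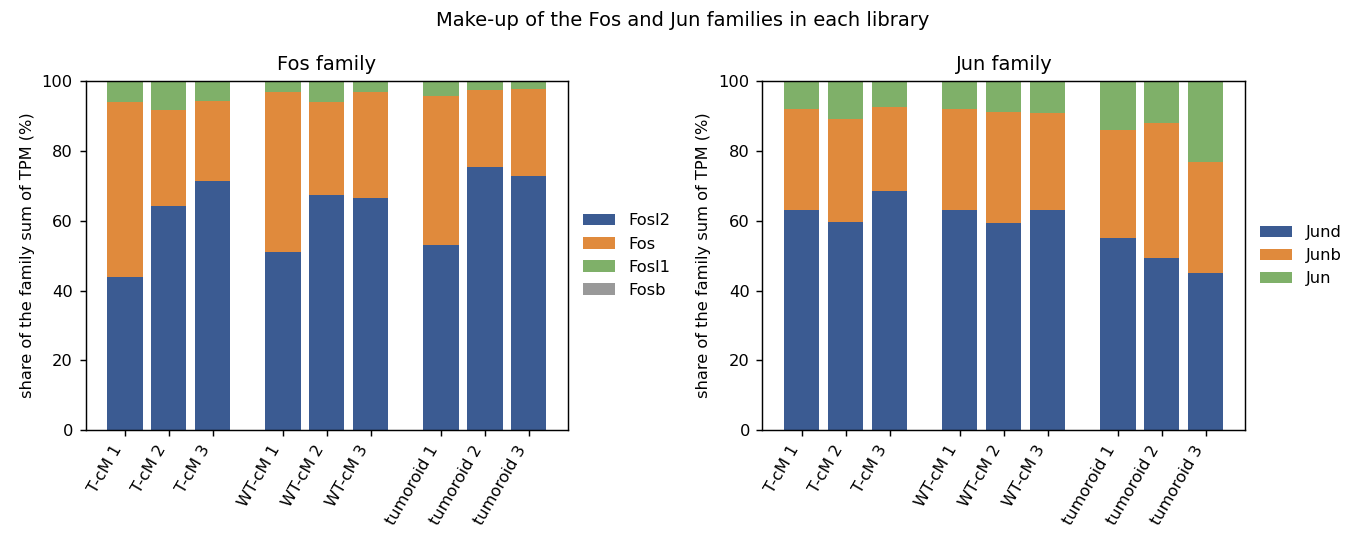
Share of each gene in the summed TPM of the Fos family (left) and the Jun family (right), in percent, for each of the 9 libraries. In tumoroids Jund falls to 44.9 to 55.1% and Jun reaches 12.0 to 23.2% of the Jun family, while Fosl2 ranges from 43.9 to 75.5% of the Fos family over all libraries.

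Tumoroids were compared with each organoid group over all 9 libraries, and both comparisons share the tumoroid libraries. Of the 9 members tested, 6 were called higher and 0 lower against WT-cM-titled organoids, where 18.2% of all tested genes rose and 11.6% fell by the same rule. Against T-cM-titled organoids 6 were called higher and 0 lower, where 19.4% of genes were called higher and 11.8% lower. The genes called were Fos, Fosl2, Jun, Junb, Egr1 and Maff in both. The groups did not overlap for 7 members against WT-cM-titled organoids (28.2% of all genes lay higher without overlap) and for 5 against T-cM-titled organoids (30.1%). The median log2 fold change of the tested members was 1.20 and 1.25, and that of all tested genes 0.15 and 0.16. On the TPM scale the calls over all genes were less even, with 3997 higher and 1096 lower against WT-cM-titled organoids in place of 2953 and 1881, and 4168 and 1146 against T-cM-titled organoids in place of 3139 and 1918.

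**Figure D2:**
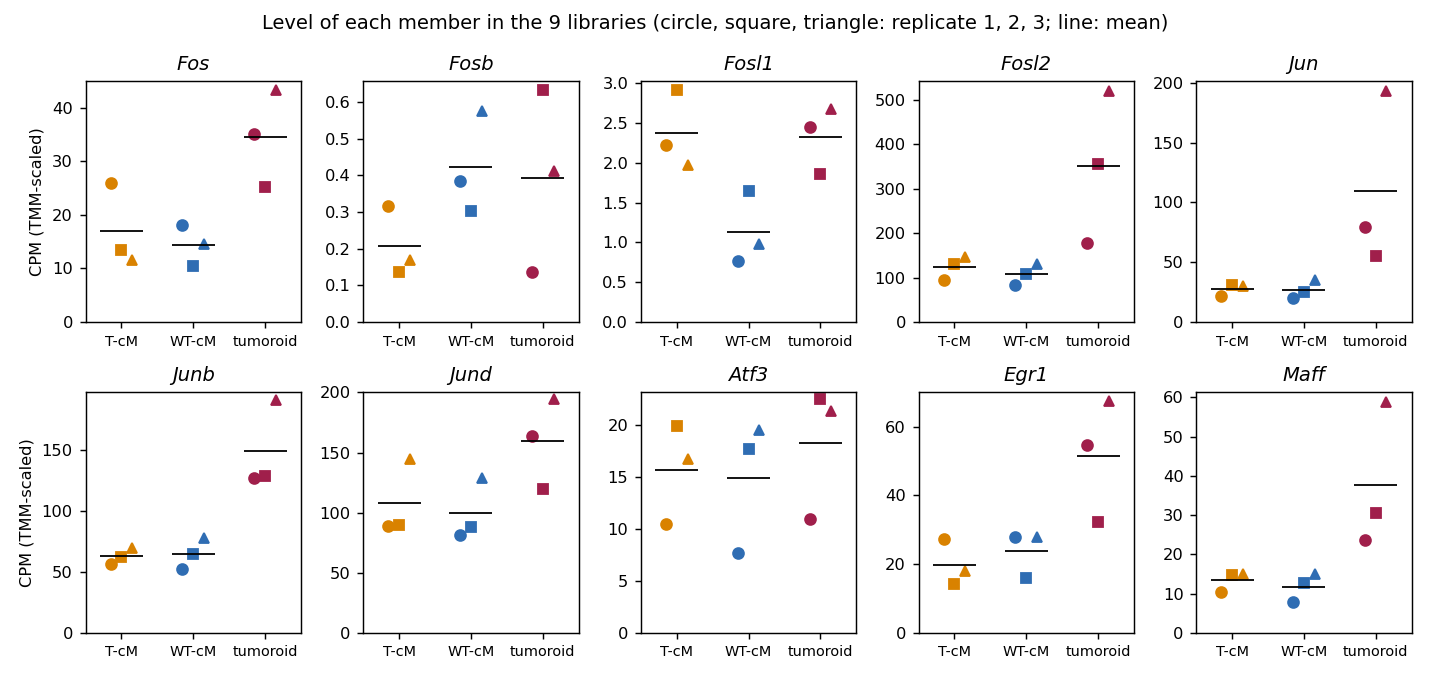
CPM of each of the 10 genes in the 9 libraries, on a linear axis from 0. Symbols give the replicate number and lines the mean of 3 libraries. Tumoroid 3 (triangle) is the highest of the 9 libraries for Fos, Fosl2, Jun, Junb, Jund, Egr1 and Maff, and for Fosl1 the highest of the tumoroids, under T-cM-titled organoid 2.

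Fos, the founding immediate early gene, lies at chr12:85473890-85477273 (GRCm38, + strand). It stood at 35.1, 25.3 and 43.3 CPM in tumoroids 1 to 3, at 18.1, 10.4 and 14.5 CPM in the WT-cM-titled organoids and at 26.0, 13.5 and 11.5 CPM in the T-cM-titled organoids. All 3 tumoroids lay above the WT-cM-titled organoids, whereas tumoroid 2 lay just below T-cM-titled organoid 1. The log2 fold change was 1.27 (SE 0.35, adjusted p = 0.015, edgeR) against WT-cM-titled and 1.02 (SE 0.35, adjusted p = 0.037) against T-cM-titled organoids. The latter passed both thresholds in 9 of 15 alternative analyses, with adjusted p up to 0.13. It fell just under the fold threshold in DESeq2 (0.97, adjusted p = 0.016) and with RLE factors (0.97, adjusted p = 0.037, edgeR). It was also lost without tumoroid 1 (1.01, adjusted p = 0.074), tumoroid 3 (0.81, 0.10), T-cM-titled organoid 2 (0.88, 0.13) and T-cM-titled organoid 3 (0.80, 0.12). The former was lost without WT-cM-titled organoid 2 (1.08, adjusted p = 0.065).

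Fosl2, which encodes Fra-2, a Fos protein without the strong activation domain of c-Fos, was the most abundant member in reads (chr5:32135801-32157842, + strand). Its level was 179, 357 and 521 CPM in tumoroids 1 to 3. The WT-cM-titled organoids had 83.1, 108.5 and 130.2 CPM, and the T-cM-titled organoids had 94.2, 129.7 and 147 CPM. Each tumoroid lay above every organoid library, and the tumoroids differed among themselves by 2.91-fold. Fosl2 rose by 1.72 (log2, SE 0.36, adjusted p = 0.0038, edgeR) against WT-cM-titled and by 1.51 (adjusted p = 0.0069) against T-cM-titled organoids, and it was called in all 15 alternatives of both comparisons.

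Fosl1 encodes Fra-1, a target of ERK signalling in carcinoma cells, and lies at chr19:5447547-5455946 (+ strand). It was low, with 14, 27 and 22 reads in the WT-cM-titled organoids, 42, 43 and 35 in the T-cM-titled organoids and 54, 50 and 78 in tumoroids. In CPM these were 0.769, 1.64 and 0.974, then 2.22, 2.92 and 1.97, then 2.45, 1.86 and 2.68. Tumoroids lay above WT-cM-titled organoids without overlap and overlapped the T-cM-titled ones. The log2 fold change of 1.05 (SE 0.40, adjusted p = 0.058, edgeR) against WT-cM-titled organoids did not pass, though it was called in 7 of 15 alternatives, among them the fit with the replicate block (1.10, adjusted p = 0.048). Against T-cM-titled organoids it was -0.02 (SE 0.39, adjusted p = 0.97), and its sign changed with the scaling. In release 21 of the annotation, the last exons of Fosl1 lie within Ccdc85b on the opposite strand, and although the libraries were made with a strand-specific kit, the strand setting of the counting is not given in the sources used here. Ccdc85b had 90, 75 and 150 reads in WT-cM-titled organoids, 71, 53 and 83 in T-cM-titled organoids and 317, 180 and 335 in tumoroids. Its part in the Fosl1 counts was not tested.

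Fosb, at chr7:19302696-19310051 (- strand), encodes another strong activator of the family. It had 2 to 17 reads and at most 0.38 TPM in any library, and so was not tested.

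Jun encodes c-Jun, the central partner of AP-1, in a gene of 1 exon at chr4:95049034-95052222 (- strand). It stood at 79.6, 55.6 and 193 CPM in tumoroids. The WT-cM-titled organoids had 19.8, 25.1 and 35.4 CPM and the T-cM-titled organoids 21.7, 31.2 and 30.1 CPM. All tumoroids lay above all organoids, with tumoroid 3 at 3.47 times tumoroid 2. Jun rose by 2.03 (log2, SE 0.43, adjusted p = 0.0042, edgeR) against WT-cM-titled and by 1.98 (SE 0.43, adjusted p = 0.0045) against T-cM-titled organoids. Both calls held in all 15 alternatives, with log2 fold changes from 1.27 to 2.34. The antisense gene Junos, which overlaps Jun, had 21, 40 and 83 reads in tumoroids and 0 to 9 in organoids.

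Junb, an AP-1 member that often counters c-Jun in proliferation, lies at chr8:84974484-84978718 (- strand). It was the steadiest of the called genes, with 126.7, 128.5 and 190.5 CPM in tumoroids, 52.0, 64.7 and 77.7 CPM in WT-cM-titled and 56.4, 61.7 and 69.6 CPM in T-cM-titled organoids. The tumoroids lay above all organoids. The log2 fold changes were 1.20 (SE 0.21, adjusted p = 0.0014, edgeR) and 1.25 (SE 0.21, adjusted p = 0.0011). Without tumoroid 3 the change against WT-cM-titled organoids was 0.96 (adjusted p = 0.0026), just under the fold threshold. Prdx2, which overlaps the end of Junb by 351 bases on the opposite strand, changed by -0.11 and 0.03 (adjusted p = 0.60 and 0.88, edgeR).

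Jund, the broadly expressed and least inducible Jun gene (chr8:70698949-70700616, + strand), had 163.5, 119.5 and 195 CPM in tumoroids. It had 81.7, 87.7 and 129 CPM in WT-cM-titled and 89.2, 89.97 and 144 CPM in T-cM-titled organoids, so that the groups overlapped. The log2 fold changes of 0.68 (SE 0.26, adjusted p = 0.064, edgeR) and 0.56 (SE 0.26, adjusted p = 0.11) did not pass. On log2(TPM + 1) in limma, where the median of all genes was also higher, Jund was called in both (1.21, adjusted p = 0.0021, and 1.08, adjusted p = 0.0038). The antisense gene Gm11175, which overlaps Jund, had 0 to 11 reads in all libraries.

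Maff encodes a small Maf protein, which has no activation domain and pairs with other leucine zipper factors (chr15:79346621-79359076, + strand). Its level was 23.6, 30.7 and 58.9 CPM in tumoroids, 7.80, 12.6 and 14.9 CPM in WT-cM-titled and 10.3, 14.8 and 15.1 CPM in T-cM-titled organoids. No organoid library reached the lowest tumoroid. Maff rose by 1.68 (log2, SE 0.37, adjusted p = 0.0052, edgeR) and by 1.49 (SE 0.37, adjusted p = 0.0088). Without tumoroid 3, the change against T-cM-titled organoids was 1.00 (adjusted p = 0.024) and was not called.

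Atf3, a stress-induced factor of the ATF family (chr1:191170296-191218039, - strand), overlapped between all groups. It had 10.97, 22.5 and 21.4 CPM in tumoroids, 7.64, 17.7 and 19.5 CPM in WT-cM-titled and 10.47, 19.95 and 16.7 CPM in T-cM-titled organoids. Replicate 1 was the lowest in each group. The log2 fold changes of 0.29 (SE 0.40, adjusted p = 0.60, edgeR) and 0.22 (SE 0.40, adjusted p = 0.69) did not pass in any alternative.

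Egr1, an immediate early zinc finger factor under SRF and Elk control, lies at chr18:34859823-34864984 (+ strand). Tumoroids had 54.6, 32.4 and 67.5 CPM, WT-cM-titled organoids 28.0, 15.9 and 27.8 CPM and T-cM-titled organoids 27.5, 14.1 and 17.98 CPM. The lowest tumoroid lay above the highest organoid by a small margin. Egr1 rose by 1.11 (log2, SE 0.34, adjusted p = 0.027, edgeR) against WT-cM-titled and by 1.37 (SE 0.35, adjusted p = 0.0098) against T-cM-titled organoids. The former was not called without tumoroid 1 (1.06, adjusted p = 0.062), tumoroid 3 (0.85, adjusted p = 0.081) or WT-cM-titled organoid 2 (0.88, adjusted p = 0.098).

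**Figure D3:**
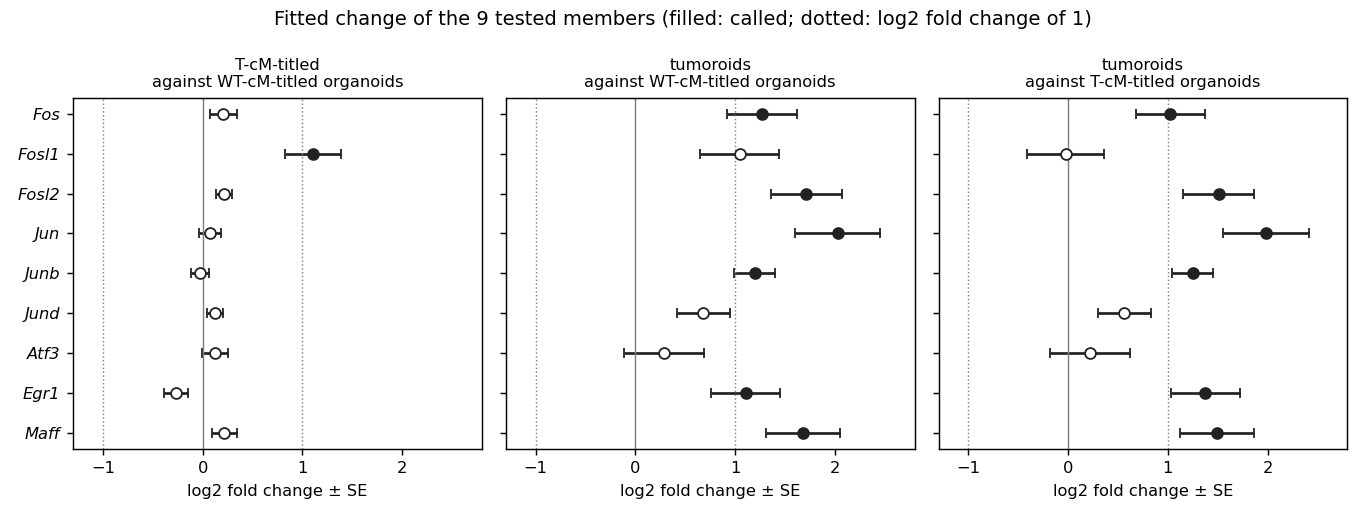
Fitted log2 fold change with its SE (horizontal bars) of the 9 tested members in each of the 3 comparisons, filled where called. Jun has the highest change in both tumoroid comparisons (2.03 and 1.98), and Fosl1 is the filled point between the organoid groups (1.11).

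Among tumoroids, replicate 3 was the highest library for 8 of 9 tested members and replicate 2 for Atf3. Without tumoroid 3, 4 members were called higher against each organoid group, namely Fos, Fosl2, Jun and Maff against WT-cM-titled and Fosl2, Jun, Junb and Egr1 against T-cM-titled organoids. Tumoroid 3 also had the highest Acta2 and Cd68 (20.5 CPM) of all libraries, and the part of these markers in the members' levels was not tested. In the organoids, replicate 1 was the highest of its group for Fos and Egr1 in both media, and it was the lowest for Fosl2, Jun, Junb, Jund, Atf3 and Maff in both.

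The organoid groups were compared within pairs, to ask whether these genes differed between the conditioned media in normal epithelium. Fosl1 was called higher and 0 members were called lower, against 0.673% of all tested genes called higher and 0.432% lower. With the fold threshold left out, 5.03% of genes passed as higher and 5.05% as lower, and Fosl1 was again the one member that passed. By an unadjusted p under 0.05, 3 of the 9 tested members passed, as did 3568 of all 16208 tested genes. Fosl1 was also the one member whose groups did not overlap (5.12% of genes lay higher in this way). It was higher in the T-cM-titled library by 1.53, 0.83 and 1.02 (log2) in pairs 1 to 3. The fitted change was 1.11 (SE 0.28, adjusted p = 0.0097, edgeR), and it was called in 5 of 12 alternatives. It was not called without the block (1.09, adjusted p = 0.82), in voom (1.09, adjusted p = 0.057), in DESeq2 (1.13, adjusted p = 0.14) or on TPM (0.79, adjusted p = 0.28). Without replicates 1, 2 and 3 in turn it was 0.93 (adjusted p = 0.033), 1.26 (adjusted p = 0.36) and 1.14 (adjusted p = 0.085). Ccdc85b, the overlapping gene, changed by -0.41 (SE 0.18, adjusted p = 0.16).

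The other 8 tested members did not pass, with log2 fold changes from -0.27 to 0.22. Fosl2 (0.22, SE 0.08, adjusted p = 0.086, edgeR), Jund (0.12) and Maff (0.22), together with Fosl1, were higher in the T-cM-titled library of all 3 pairs, as were 18.9% of all genes. Egr1 was lower in all 3 pairs (-0.03, -0.17 and -0.63 by pair), as were 22.3% of genes, with a fitted change of -0.27 (SE 0.12, adjusted p = 0.17, edgeR). Fos was higher in pairs 1 and 2 (0.52 and 0.38) and lower in pair 3 (-0.33). Jun and Atf3 had the same signs by pair as Fos. Junb differed by at most 0.16 in any pair.

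**Figure D4:**
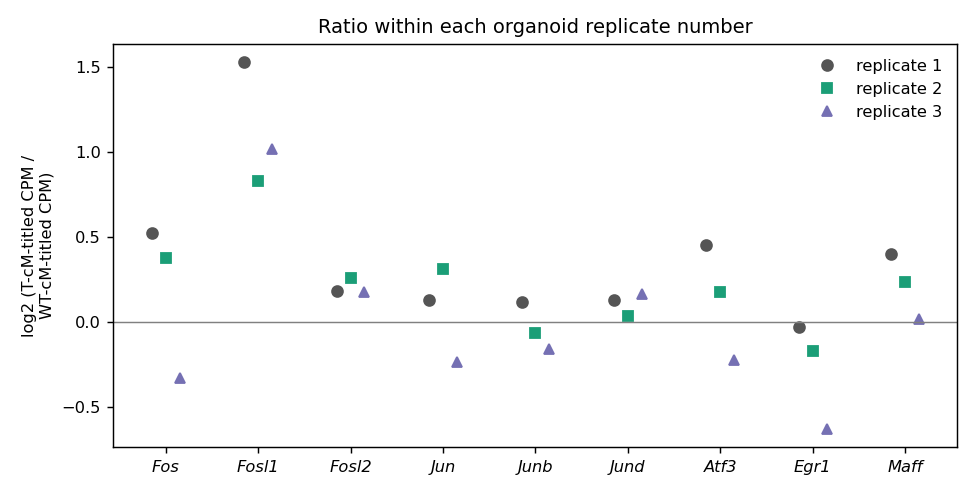
Log2 ratio of T-cM-titled to WT-cM-titled CPM within each replicate number, for the 9 tested members. Fosl1 lies at 0.83 to 1.53 in its 3 pairs, and the other genes lie between -0.63 and 0.52.

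For 4 members, the genes with the most similar profile were sought among 13488 genes outside the list, by the root mean square distance of centred log2 CPM over the 9 libraries. For Jun these were Dcxr (0.15), Ablim1 (0.21) and Rhob (0.22), the last an immediate early GTPase gene. For Fos they were Ccdc125 (0.21), Cep72 (0.22) and the epithelial keratin Krt18 (0.23), with Egr1 at 0.27 the nearest member. For Egr1 they were Armc10 (0.18), Nkain1 (0.21) and Zbtb8a (0.22). Fosl1 had no neighbour as close, with Hist1h3d (0.29), S100a6 (0.30) and Lpar2 (0.34). The other members lay at 0.58 or more from it. Fosl1 had 14 to 78 reads per library, and the part of counting error in its distances was not tested.

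The pathway lists around these genes were described by counts beside the shares of all genes given above. Of the other immediate early genes, 20 of 23 were tested, and 10 were called higher and 0 lower in tumoroids against WT-cM-titled organoids, with a median log2 fold change of 1.11. Ier3, a survival gene, stood at 112, 237 and 260.0 CPM in tumoroids and 6.05 to 9.43 CPM in organoids. In order of p rather than of fold, it was followed by Nr4a1, an orphan receptor gene (3.00, SE 0.31, adjusted p = 6.8e-05, edgeR), Myc (2.31, SE 0.33, adjusted p = 0.00044) and Gadd45b (1.51, SE 0.27, adjusted p = 0.0017). Against T-cM-titled organoids 11 were called higher and 0 lower.

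Of 13 outputs of ERK signalling, 6 were called higher and 1 lower in tumoroids against each organoid group. Spry1, a feedback inhibitor (2.18, SE 0.29, adjusted p = 0.00032, edgeR), Phlda1 (2.11, SE 0.30) and the ERK phosphatase gene Dusp4 (1.52, SE 0.22) were among those that rose against WT-cM-titled organoids. Dusp5, another ERK phosphatase gene, was the one that fell, from 30.7 to 50.3 CPM in WT-cM-titled organoids to 5.35 to 11.8 CPM in tumoroids. Of 19 upstream kinases and factors 2 were called higher and 2 lower against each organoid group. Elk3, a partner of SRF, stood at 26.6, 33.6 and 66.3 CPM in tumoroids and at most 0.304 CPM in organoids, and Elk1 rose by 1.27 (SE 0.23) against WT-cM-titled organoids. Mapk8, which encodes the c-Jun kinase JNK1, fell by 1.49 (SE 0.15), and Map2k2, which encodes MEK2, fell by 1.71 (SE 0.15).

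Of the AP-1 target genes, 14 of 16 were tested, and 10 were called higher and 0 lower against each organoid group. Ccnd1, the gene of cyclin D1, rose by 3.64 (log2, SE 0.33, adjusted p = 4e-05, edgeR) against WT-cM-titled organoids, and Mmp14, a membrane metalloproteinase gene, by 2.30 (SE 0.40, adjusted p = 0.0014). Spp1, which encodes osteopontin, stood at 529, 1573 and 1504 CPM in tumoroids and at most 0.339 CPM in organoids. Plau, the urokinase gene, stood at 7.16, 2.23 and 50.8 CPM in tumoroids and at most 0.113 CPM in organoids. Timp1 had 2.90, 1.38 and 3.98 CPM in tumoroids and at most 0.113 CPM in organoids. Several of these genes are also targets of other pathways, Ccnd1 and Mmp7 of Wnt among them.

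Of the other AP-1 and small Maf partners, 8 of 10 were tested, and 1 was called higher and 1 lower in tumoroids against each organoid group. Jdp2, a repressor of AP-1, stood at 24.1, 44.4 and 11.4 CPM in tumoroids and 0.851 to 2.17 CPM in organoids. Batf2, an inhibitor of AP-1, stood at 2.04, 1.19 and 2.92 CPM in tumoroids and 11.2 to 29.9 CPM in organoids. Neither range overlapped.

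Between the organoid groups none of these 5 lists held a called gene. With the fold threshold left out, Batf2 (0.68), Maf (0.67), Mafg (0.35) and Mafk (0.30) were higher in the T-cM-titled group, as were Nr4a2 (0.73) and Klf6 (0.28), Dusp6 (0.67), Elk4 (0.31) and Plaur (0.76), the urokinase receptor gene. Mmp7 was lower (-0.35). Plaur had 26.6, 33.6 and 26.3 CPM in the T-cM-titled and 16.4, 18.1 and 16.7 CPM in the WT-cM-titled libraries, with no overlap.

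Heat shock genes were followed as a sign of handling, since immediate early genes also respond to it. Between the organoid groups, 2 of 10 were called higher and 0 lower, Hspa1b (1.85, SE 0.19, adjusted p = 4.9e-08, edgeR) and Hspa1a (1.80, SE 0.26, adjusted p = 1.5e-05). With the fold threshold left out, 3 were higher, Bag3 (0.47) being the other, and 2 were lower, Hspd1 (-0.34) and Hspe1 (-0.30), which encode mitochondrial chaperones. In tumoroids 3 were called higher and 0 lower against WT-cM-titled organoids, and 2 higher and 1 lower against T-cM-titled organoids. The former were Hspb1, Hspa1b and Hspa1a, and the latter Hspb1 and Hspa1b, with Bag3 lower (-1.39, SE 0.27). The part of handling in the members' levels was not tested.

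**Figure D5:**
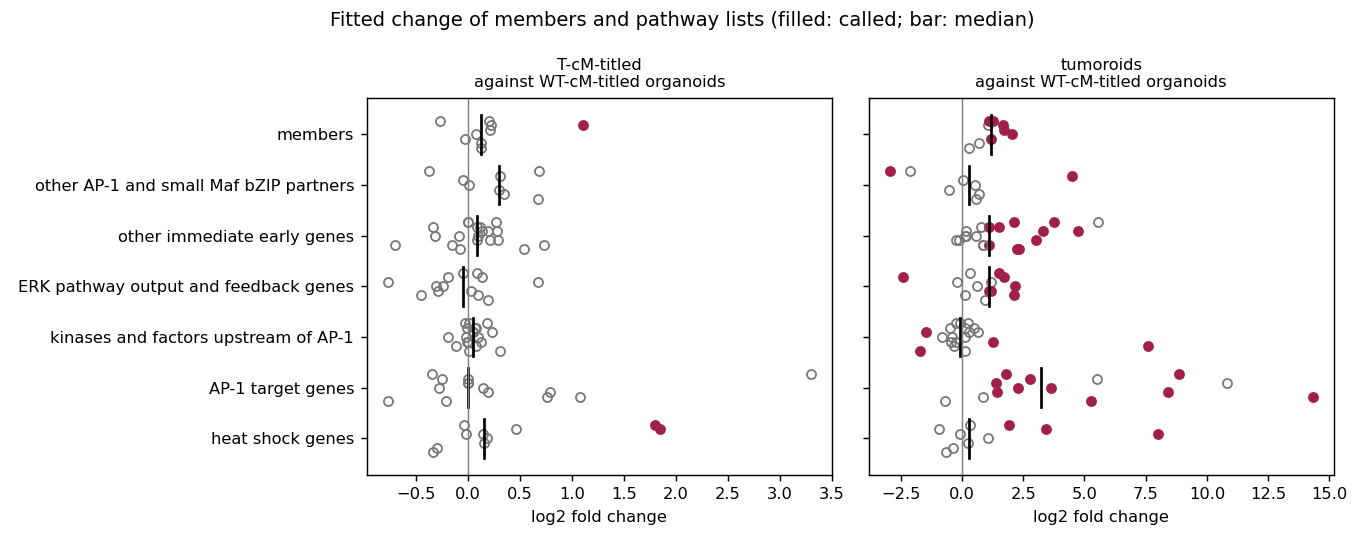
Log2 fold changes of the tested genes of the member list and of 6 pathway lists, between the organoid groups (left) and in tumoroids against WT-cM-titled organoids (right). Filled points are called, bars are medians, and the axes differ in range. In tumoroids the median is 3.21 for AP-1 target genes, 1.11 for other immediate early genes and -0.09 for upstream kinases and factors.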

How the data were processed

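The 9 libraries were strand-specific poly(A) RNA-seq of organoids and tumoroids. The authors aligned reads to mm10 with STAR and counted them on Gencode release 13. They deposited raw counts per gene, not normalised, and TPM, which the authors scaled by gene length and library total. The counting tool and its strand setting were not given in the sources used here. Groups and replicate numbers follow the titles. Genes that reached a TPM of 1 in any of the libraries entered the tests in R 4.3.3 with edgeR 4.0.16 (TMM, quasi-likelihood F test in its older form, Benjamini-Hochberg). The organoid groups were fitted over 6 libraries, blocked on replicate number after the study's own sample effect. Tumoroids were fitted over all 9 libraries without one. Deviations of same-numbered organoid libraries correlated at r = 0.546, 0.338 and 0.547, each number being 1 mouse. Positions came from Gencode release 21. All 10 members were named, as were up to 4 genes per list and comparison with the smallest p, and a part of these is given. Members and lists were chosen with earlier results of these data known. Alternatives used limma 3.58.1 (voom, and log2 TPM with a pseudocount of 1), DESeq2 1.42.0, other factors, filters and blocks, and each replicate left out. The fits were tested on simulated data. Depth limits Fosl1 and Fosb most.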

Additional observations from a re-analysis of the deposited data

How the results depend on the processing

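Between the organoid groups, 0 members were called higher under voom, DESeq2, limma on log2 TPM, the fit with no replicate block and each fit without replicate 1, 2 or 3 (0 to 0), because Fosl1 lost its call. Over all genes, the fit without the block called 0 higher and 0 lower, and that without replicate 2 called 1 and 0. Other values that changed sign were small: without single replicates, Atf3 ranged from -0.021 to 0.306, Jun from -0.057 to 0.226 and Junb from -0.103 to 0.029 (log2). Against WT-cM-titled organoids Atf3 in tumoroids ranged from -0.034 to 0.552. Against T-cM-titled organoids Atf3 ranged from -0.003 to 0.482 and Fosl1 from -0.156 to 0.151, and Fosl1 was 0.087 with upper-quartile factors, 0.389 on log2 TPM and 0.011 with the replicate block added. With the replicate block added, which joins tumoroids and organoids of different mice by number, Fosl1 was called against WT-cM-titled organoids (1.102, adjusted p = 0.048, edgeR). That made 7 members, and no member's call changed against T-cM-titled organoids. The number of members called higher in tumoroids ranged from 4 to 8 over 16 alternatives against WT-cM-titled and from 4 to 7 against T-cM-titled organoids, the lowest in both without tumoroid 3. The median of all tested genes moved up by 0.37 and 0.35 on the TPM scale and by 0.10 and 0.11 with upper-quartile factors. Of 540 recomputed list counts 40 moved by over 1.5 times. Fosb, fitted without the TPM filter, was at -0.99, -0.08 and 0.92, with adjusted p of 0.54, 0.97 and 0.42 (edgeR). Depth limits Fosl1 and Fosb.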
